A study of Mus musculus with 2 samples.

Results

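Periportal hepatocytes are the liver cells nearest the portal tract, where blood from the gut and the hepatic artery enters the lobule, and they were examined here in single-cell RNA-Seq (scRNA-Seq) of undamaged mouse liver. They were chosen by measured values, through a zone share. This share is the number of unique molecular identifiers (UMIs, each marking 1 captured transcript) of 7 perivenous genes (Glul, Cyp2e1, Cyp1a2, Oat, Slc1a2, Lect2 and Rhbg), divided by the UMIs of these and of 8 periportal genes (Cyp2f2, Sds, Hal, Hsd17b13, Pck1, Ctsc, Ass1 and Asl). It was computed in barcodes, each standing for 1 droplet, that had over 30% of their UMIs in the 13 mitochondrial genes and at least 5 zone UMIs. Of 59202 barcodes in the undamaged library, 3870 (6.54%) were over the mitochondrial limit, and 3243 of these had enough zone UMIs. The 833 barcodes with a zone share at or below the 25th percentile are called periportal barcodes here. They made up 25.7% of the zoned barcodes, because ties at the percentile were kept, and 1.41% of the library. The other 2410 zoned barcodes, called the remaining barcodes, served for comparison.

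The series held 2 scRNA-Seq libraries of hepatocytes, isolated by collagenase perfusion in 2 steps from livers of C57BL/6 mice (C57BL/6J in the methods of the study) on a normal diet. The undamaged library (0 h) came from 1 hepatocyte preparation, and the PHx48h library from another preparation made 48 h after partial hepatectomy (PHx), in which most of the liver is removed by surgery. The labels give an age of 10 to 12 weeks at surgery, and the methods describe the mice as male and slightly younger. With 1 library per time point there was no replicate, so no difference was tested, and all intervals are 95% intervals that cover counting error only. The methods also state that cells of high mitochondrial content were removed before the study's own analysis, whereas the barcodes described here are by their definition high in it. Whether they are damaged or intact hepatocytes was not tested, and the levels below are those of such barcodes. The undamaged and PHx48h barcode lists shared 148 barcode sequences, 4 of them among the periportal barcodes.

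Hepatocytes along the path from the portal tract to the central vein share most of their genes but divide their work, a pattern called zonation. Periportal cells receive the blood richest in oxygen and nutrients and are known for ammonia detoxification through urea, for gluconeogenesis and for the secretion of plasma proteins. Perivenous cells lie near a source of Wnt signals at the central vein and are known for glutamine synthesis and for the metabolism of drugs and bile acids.

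Levels are given as CPM, the summed UMIs of a gene per 1000000 non-mitochondrial UMIs of the same barcodes. The periportal barcodes held 1382187 non-mitochondrial UMIs, with a median of 1317 per barcode and quartiles of 979 and 1821, and the remaining barcodes had a median of 1351. Mitochondrial genes took a median of 48.1% of the UMIs in the periportal barcodes and 46.3% in the remaining barcodes, and the part of this gap in the results was not tested. The periportal barcodes had a median of 9 zone UMIs, so the zone share of a single barcode was coarse. Perivenous UMIs were absent from 199 periportal barcodes, 325 barcodes held 1, 169 held 2 and 38 held at least 6. At least 20 zone UMIs were found in 104 of the 833. The highest zone share inside the periportal set was 0.222, held by 43 barcodes, and the lowest outside was 0.227, held by 5. Pooled over barcodes, perivenous genes gave 13.3% of the zone UMIs of the periportal set, 65.5% of those of the remaining set and 63.6% of those of the 52587 barcodes with under 2% mitochondrial UMIs.

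**Figure D1:**
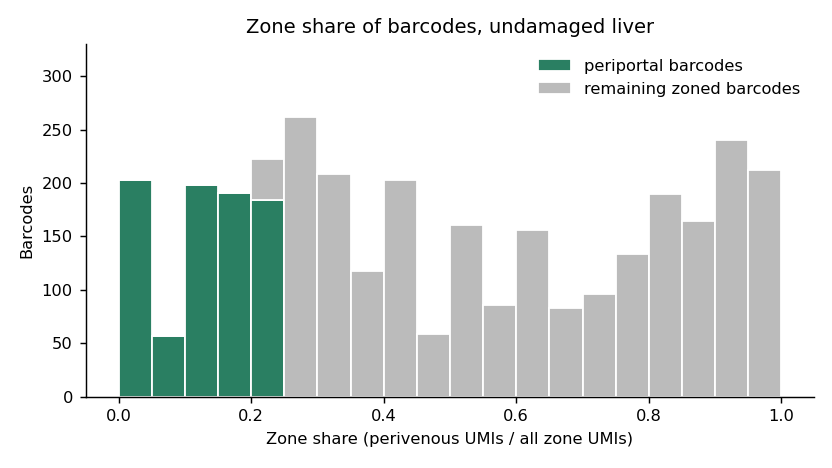
Histogram of the zone share (x axis, bins of 0.05) of the zoned barcodes of the undamaged library (y axis, number of barcodes), with periportal barcodes in green and the remaining barcodes stacked in grey. The lowest bin holds 203 barcodes, all periportal, and the distribution runs without a gap through the threshold of 0.222.

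Hepatocyte markers were abundant in the periportal barcodes, but they were abundant elsewhere in the library too. The summed level of 10 hepatocyte markers, among them Alb and Apoa1, was 128754 CPM in the periportal barcodes and 104344 CPM in the remaining barcodes. None of the 10 was at 0. The same sum was 74870 CPM in the 814 most perivenous zoned barcodes and 85402 CPM in the 52587 barcodes of low mitochondrial content. Alb was also detected in 100% of 542 barcodes rich in markers of 1 other cell class. High levels of these markers thus did not by themselves identify a barcode as a hepatocyte. All 8 T and NK cell markers, all 4 B cell markers and all 5 neutrophil markers in the files were at 0 in the periportal barcodes, where the exact interval of a summed list at 0 reaches 2.67 CPM. Kupffer cell and macrophage markers summed to 39.1 CPM (29.3 to 51.0) against 42.3 in the remaining barcodes, with Timd4 at 0. Endothelial markers summed to 22.4 CPM against 39.0, with Lyve1 and Oit3 at 0, and stellate markers to 26.8 against 28.8, with Des at 0. Erythroid markers summed to 42.0 CPM against 59.1, with Hba-a2 at 0. Cholangiocyte markers, which belong to the bile ducts beside the portal vein, summed to 45.6 CPM (35.0 to 58.3) against 30.6 (25.3 to 36.5). Of that list Krt19, Krt7, Epcam and Cftr were at 0, and 4 markers of it were also at 0 in the remaining barcodes. Spp1, which encodes osteopontin and was singled out after its values were seen, gave 39.1 CPM against 23.7. It made up most of the summed level in both sets. Of 2 markers of other cell classes among the genes compared below, 1 was called higher and none lower. The part of bile duct RNA in the results was not tested. At least 3 UMIs of the markers of 1 other cell class were found in 8 periportal barcodes (0.960%) and in 31 remaining barcodes (1.29%).

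The periportal zone genes, which fixed the choice, were not all high to the same degree. Cyp2f2, a cytochrome P450 known from the lung and the periportal liver (chromosome 7, 27119909 to 27133660, GRCm38), stood at 3152 CPM in the periportal barcodes and 1646 CPM in the remaining barcodes. Hsd17b13, a lipid droplet protein, stood at 536 against 238 CPM. Pck1, the committed enzyme of gluconeogenesis, stood at 496 against 273 CPM. Each of these 3 genes was between 1.81-fold and 2.25-fold higher. Hal, which starts histidine breakdown, stood at 332 against 180 CPM, Sds, a serine dehydratase, at 218 against 94.0 CPM, and the protease gene Ctsc at 98.4 against 44.1 CPM. Ass1 and Asl, consecutive enzymes of the urea cycle, stood closer together, at 988 against 868 CPM and at 483 against 389 CPM. All of these values were used in the choice and are given as a description.

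To take a gene's own UMIs out of the choice, the zone share was recomputed without it and the percentile taken again. Cyp2f2 was then 1.68-fold higher in the periportal barcodes (1.61 to 1.75), Hsd17b13 1.83-fold (1.66 to 2.03), Sds 1.83-fold (1.55 to 2.15), Ctsc 1.83-fold (1.44 to 2.32), Pck1 1.56-fold (1.41 to 1.73) and Hal 1.49-fold (1.31 to 1.68). Ass1 had a ratio of 0.955 (0.892 to 1.02) and Asl a ratio of 0.996 (0.904 to 1.10). For those 2 urea cycle genes the interval held a ratio of 1, so a difference like that of Cyp2f2 was not seen once their own UMIs were left out. When every UMI was instead put at random into 1 of 2 parts, with 568 periportal barcodes chosen on the one part and levels read from the other, Ass1 had a ratio of 1.03 (0.929 to 1.14), Asl 1.002 (0.858 to 1.17) and Cyp2f2 1.72 (1.62 to 1.83). The zoned barcodes were split at the quartiles of the zone share into 4 zone bins, with the periportal set as bin 1 and the perivenous end as bin 4. From bin 1 to bin 4 Ass1 took the levels 988, 883, 1113 and 551 CPM, so its lowest level lay at the perivenous end and its highest in bin 3. Cyp2f2 fell at each step, through 3152, 2656, 1504 and 380 CPM.

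Perivenous zone genes stood at low levels in the periportal barcodes. Cyp2e1, the main ethanol oxidising P450, stood at 619 CPM against 4310 CPM in the remaining barcodes, Cyp1a2 at 163 against 1064 CPM and Glul, glutamine synthetase, at 49.2 against 527 CPM. The glutamate transporter gene Slc1a2 had 11 UMIs in all 833 barcodes (7.96 CPM against 219), and the ammonia transporter gene Rhbg had 6 (4.34 CPM against 86.1). With the gene left out of the choice, Cyp2e1 was 3.52-fold lower (3.33 to 3.72), Glul 7.24-fold lower (5.91 to 8.96) and Slc1a2 16.8-fold lower (10.6 to 28.5).

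Shares of barcodes with a UMI were set beside those in 542 low mitochondrial barcodes with at least 10 UMIs of the markers of 1 other cell class. At 500 non-mitochondrial UMIs per barcode, Cyp2f2 was detected in 78.8% of 831 periportal barcodes (75.9% to 81.6%), 44.2% of 2385 remaining barcodes and 51.3% of those 542 barcodes, whose median depth before thinning was 2496 against 1317 non-mitochondrial UMIs. Before thinning the 3 shares were 97.8%, 68.5% and 95.9%. Hepatocyte RNA was thus present in barcodes of other cell types. Cdh1, which encodes E-cadherin, was detected in 15.3% of periportal barcodes (12.9% to 17.9%), 4.99% of remaining barcodes and 3.32% of the other classes. Pigr, the transporter of immunoglobulin A into bile, was detected in 54.6%, 34.6% and 29.3% of them. Ctsc was detected in 3.97% of the periportal barcodes and 19.6% of the other classes, and its share is not read as expression by hepatocytes. Cyp2e1 was detected in 23.8% of periportal barcodes (20.97% to 26.9%) against 80.8% of remaining barcodes and 80.3% of the other classes. Cyp2f2, Ctsc and Cyp2e1 are zone genes, so their shares in the periportal and remaining barcodes follow in part from the choice. The other classes were not used as a measure of free RNA in the periportal barcodes. The part of free RNA in the results was not tested, and no level was corrected for it.

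Outside the 15 zone genes, 3970 nuclear genes had at least 100 UMIs over both sets and were compared, with 5 CPM added to both levels before the log2 ratio. A gene was called at a ratio of 1.5-fold. The periportal barcodes had 38 genes called higher (0.957% of those compared) and 285 called lower (7.18%), and the counting interval left out 1 for all of them. The median gene had a log2 ratio of -0.12, and 32.1% of the genes had a ratio above 1. The split between higher and lower calls moved with the scaling. With ratios centred on the median gene 80 were higher and 144 lower, and with the zone genes and the 20 most abundant genes left out of the denominator 70 were higher and 216 lower. Those 20 genes, led by Alb, Apoe and Apoa2, took 40.4% of the non-mitochondrial UMIs of the periportal barcodes, and 39.8%, 35.8% and 32.4% in zone bins 2, 3 and 4. The periportal barcodes also held fewer genes at equal depth, with a median of 256 genes per 500 UMIs against 277 in the remaining barcodes and 291 in the perivenous set at or above the 75th percentile.

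The 15 genes with the largest log2 ratios, with 5 CPM added, among those reaching 50 CPM were led by Sult5a1, a cytosolic sulfotransferase gene (chromosome 8, 123140192 to 123158315). It stood at 110.7 CPM (93.8 to 129.7) in the periportal barcodes and 47.6 CPM (41.0 to 55.0) in the remaining barcodes, a 2.32-fold difference (1.87 to 2.89). Ptgds, a prostaglandin D synthase, stood at 53.5 against 22.2 CPM. Cdh1 (chromosome 8, 106603351 to 106670246) stood at 293 CPM (265 to 323) against 136 CPM (125 to 148), 2.15-fold higher (1.89 to 2.45). Its product, E-cadherin, joins epithelial cells to each other. Cyp39a1, an oxysterol hydroxylase of bile acid synthesis, stood at 76.0 against 35.4 CPM, and Hsd17b6, a steroid and retinol dehydrogenase, at 220 against 115 CPM. The organic anion transporter gene Slc22a7 stood at 420 against 245 CPM, the asparaginase gene Aspg at 444 against 261 CPM, and Ly6e at 576 against 358 CPM. The last 3 were the most abundant of the 15 and lay 1.71-fold, 1.70-fold and 1.61-fold higher. The others were BC029214, the glucuronosyltransferase gene Ugt2b38, the semaphorin receptor gene Plxnb1, Serpina12, Apoa4, Clec2h and Pklr, between 1.67-fold and 1.94-fold higher. Ugt2b38 belongs to a family with close copies, and how the authors' counting treated shared reads is not given in the sources used here.

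The genes at the low end were further from equal than those at the high end. Cyp2a5, the coumarin hydroxylase (chromosome 7, 26835305 to 26843548), stood at 58.6 CPM (46.5 to 72.8) in the periportal barcodes and 546 CPM (523 to 569) in the remaining barcodes, 9.31-fold lower (7.46 to 11.8). Gulo, the last enzyme of vitamin C synthesis, stood at 117 against 753 CPM, 6.43-fold lower (5.49 to 7.58). Lpl, lipoprotein lipase, had 7 UMIs in the periportal barcodes and was 12.0-fold lower (5.72 to 30.1). Regulators and rate-limiting steps were among them. Nr1i3, the drug-sensing receptor CAR, stood at 34.7 against 195 CPM, 5.60-fold lower, and Cyp7a1, the rate-limiting enzyme of bile acid synthesis, at 19.5 against 111 CPM, 5.68-fold lower. The glutathione transferase gene Gstm2 stood at 23.2 against 114 CPM, and Cldn2, a pore-forming claudin of tight junctions, at 24.6 against 88.1 CPM. Mup17, a major urinary protein gene, was the most abundant, at 1831 against 7795 CPM, 4.26-fold lower (4.09 to 4.43). Cyp2c29 (709 against 2442 CPM), Cyp2c37, Cyp2c50 and Cyp2c54 were between 3.18-fold and 3.80-fold lower, and Fitm1, Aldh3a2 and Clstn3 between 4.11-fold and 5.33-fold lower. Mup and Cyp2c genes have near-identical copies, so the share of each single copy is uncertain.

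To show the stretches upstream of these genes, the 250 bases before the RefSeq transcription start are printed for a high and a low gene of the zone list and for the gene with the highest and the gene with the lowest log2 ratio, both with 5 CPM added. They are RefSeq sequences of GRCm38.p6, written in the direction of transcription, for Cyp2f2 at chr7:27119705-27119954 (plus strand), Cyp2e1 at chr7:140763569-140763818 (plus), Sult5a1 at chr8:123158281-123158530 (minus) and Cyp2a5 at chr7:26835089-26835338 (plus). The RefSeq starts lie inside the GENCODE gene bounds printed elsewhere in the text, so the windows run past those bounds. Capitals mark a motif match.
Cyp2f2: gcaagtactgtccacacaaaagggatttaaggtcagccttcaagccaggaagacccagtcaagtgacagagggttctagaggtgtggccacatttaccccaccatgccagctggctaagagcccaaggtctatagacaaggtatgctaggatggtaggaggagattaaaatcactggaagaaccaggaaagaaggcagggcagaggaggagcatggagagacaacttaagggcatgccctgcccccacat
Cyp2e1: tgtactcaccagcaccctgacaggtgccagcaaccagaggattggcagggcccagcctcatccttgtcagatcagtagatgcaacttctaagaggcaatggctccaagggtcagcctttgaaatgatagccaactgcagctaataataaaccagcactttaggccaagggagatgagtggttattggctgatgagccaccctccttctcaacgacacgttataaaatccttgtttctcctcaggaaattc
Sult5a1: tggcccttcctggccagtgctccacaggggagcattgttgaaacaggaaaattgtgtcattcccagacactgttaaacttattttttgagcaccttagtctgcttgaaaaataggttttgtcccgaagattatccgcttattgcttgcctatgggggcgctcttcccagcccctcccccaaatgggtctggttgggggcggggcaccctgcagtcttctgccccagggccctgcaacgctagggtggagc
Cyp2a5: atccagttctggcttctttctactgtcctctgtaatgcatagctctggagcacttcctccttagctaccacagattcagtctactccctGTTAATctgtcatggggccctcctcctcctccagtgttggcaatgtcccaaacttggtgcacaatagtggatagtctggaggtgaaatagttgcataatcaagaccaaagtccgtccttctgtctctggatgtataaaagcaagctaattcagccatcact
The motifs searched on both strands were CTTTGAT (the core bound by TCF/LEF factors, which carry Wnt signals), CAAAGTCCA (HNF4), GTTAAT (an HNF1 half-site) and TGTTTAC (FOXA). They occurred in 3.21%, 0.384%, 6.43% and 3.17% of 32851 RefSeq promoter windows of this length. Of the 4 windows shown only that of Cyp2a5 held a match, GTTAAT 161 bases before the RefSeq start. Of the 15 highest genes 10 had a window, of which those of Pklr and Serpina12 held CTTTGAT and that of Ugt2b38 held TGTTTAC. Of the 15 lowest 11 had one, of which that of Cyp2c29 held CTTTGAT and that of Cyp2a5 GTTAAT. A match is a description of the letters and not of binding.

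The gene levels changed in steps over the 4 zone bins. Of the 15 highest genes 14 fell at every step from bin 1 to bin 4, and of the 15 lowest 14 rose at every step. Cdh1 took the levels 293, 234, 107 and 31.4 CPM, and Hsd17b6 took 220, 205, 79.8 and 29.5 CPM. In both genes the largest step in CPM lay between bins 2 and 3. The counting intervals of bins 1 and 2 overlapped for Hsd17b6 but not for Cdh1. Cyp2a5 took 58.6, 97.3, 320 and 1454 CPM, and Mup17 took 1831, 2425, 6972 and 16418 CPM, so most of the rise of these genes lay in bins 3 and 4. Of the 38 higher calls 27 fell at every step, as 5.54% of all compared genes did, and of the 285 lower calls 196 rose at every step, as 18.8% of all did. The lower calls peaked in bin 4 in 229 cases, in bin 3 in 54 and in bin 2 in 2. The bins were made from the same UMIs as the choice, so these orders are a description.

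**Figure D2:**
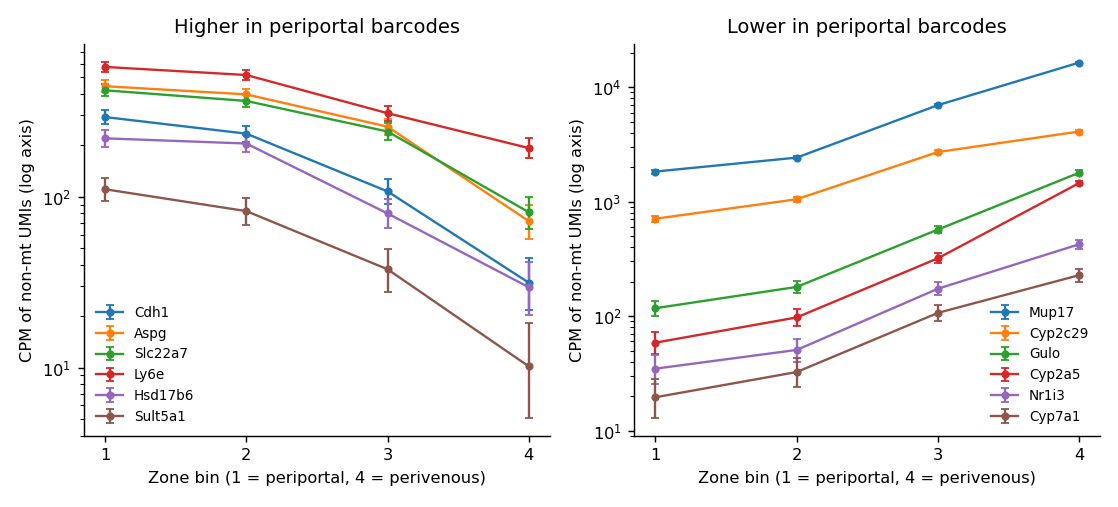
Levels (y axis, CPM, log scale) over 4 zone bins (x axis, 1 is the periportal set) for 6 genes higher in the periportal barcodes (left) and 6 lower (right), with exact Poisson intervals as bars. The left lines fall and the right lines rise at every step, as Cdh1 from 293 to 31.4 CPM and Cyp2a5 from 58.6 to 1454 CPM.

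Lists of liver functions were then read gene by gene, each beside the 0.957% of all genes called higher, the 7.18% called lower and the all-gene median of -0.12. Of 14 other periportal genes compared 5 were higher and none lower, with a median log2 ratio of 0.44. They were Cdh1, Hsd17b6, Apoa4, Aldh1b1 (45.6 against 19.9 CPM), an aldehyde dehydrogenase, and Pigr (1697 against 1092 CPM), the last 2 singled out after their values were seen. Cps1, the entry enzyme of the urea cycle, stood at 1917 against 2024 CPM and arginase 1 (Arg1) at 129 against 138 CPM, neither of them called. From the periportal to the perivenous zone bin Cps1 took 1917, 2004, 2364.5 and 1642 CPM, and Arg1 took 129, 141, 167 and 99.7 CPM. Both were thus lowest at the perivenous end, though the counting intervals of Arg1 in the end bins overlapped. Against the perivenous set alone both lay higher in the periportal barcodes, with log2 ratios of 0.22 and 0.36, under 1.5-fold.

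Nitrogen and sugar metabolism showed few calls. Of 8 urea cycle and ammonia genes outside the zone list 1 was lower and none higher, with a median of -0.12, equal to that of all genes. Centred on the median gene 1 was higher and none lower. The lower one was Glud1, glutamate dehydrogenase, at 149 against 226 CPM. Gls2, the liver glutaminase that releases ammonia, stood at 221 against 147 CPM, 1.502-fold higher (1.303 to 1.73) before the added level and not called after it. Of 9 gluconeogenesis genes none was called and the median was 0.19. Within them Tat, tyrosine aminotransferase, stood at 349 against 292 CPM and Pcx, pyruvate carboxylase, at 145 against 186 CPM. Of 16 genes of amino acid catabolism 3 were lower and none higher, with a median of -0.10, whereas centred on the median gene 1 was lower and 4 higher. The lower ones were Hpd (889 against 1377 CPM) and Hgd (158 against 243 CPM), consecutive enzymes of tyrosine breakdown, and Prodh, which starts proline breakdown (110.0 against 191 CPM). Hgd and Prodh were singled out after their values were seen. Ftcd, of histidine breakdown, stood at 751 against 520 CPM, 1.44-fold higher (1.34 to 1.56) and not called.

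Of 16 plasma protein and apolipoprotein genes none was called, 14 lay above the median gene and the median was 0.17. Alb, serum albumin, stood at 55623 CPM (55231 to 56018) against 41288 CPM (41088 to 41490), 1.35-fold higher. From bin 1 to bin 4 it took 55623, 56263, 40021 and 21520 CPM. The counting intervals of bins 1 and 2 overlapped, and the levels were lower in bins 3 and 4. Apoe stood at 37983 against 40819 CPM and Apoa2 at 34400 against 34706 CPM. Of 17 coagulation and complement genes none was called and the median was 0.18, with the fibrinogen gene Fgb at 7732 against 6217 CPM and complement C9 at 1464 against 1137 CPM. Of 14 acute phase and iron genes 1 was higher and 2 lower, with a median of 0.23. The higher one was Hpx, which binds free haem, at 9669 against 6440 CPM, 1.501-fold higher. The lower ones were hepcidin, the hormone that limits iron export (Hamp, 402 against 785 CPM, singled out after its values were seen), and its neighbour Hamp2 (10.9 against 32.1 CPM, from 15 UMIs). These 2 have near-identical sequences. Of 13 growth hormone dependent male genes 2 were higher (Ugt2b38 and Serpina12) and 1 lower (Elovl3, a fatty acid elongase, at 568 against 916 CPM), with a median of -0.14, whereas centred on the median gene 3 were higher and none lower. Mup20, also known as darcin, stood at 33144 against 23694 CPM, 1.40-fold higher, the opposite side from Mup17.

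Of the perivenous functions, 3 lists were low as groups. The lists of bile acid synthesis and of fatty acid oxidation and ketogenesis, given last, are not counted among them. All 11 Wnt-linked and other perivenous genes compared were lower, with a median of -1.26, among them Aldh1a1, a retinal dehydrogenase gene (288 against 626 CPM), and Pon1, paraoxonase 1 (171 against 333 CPM). The list held 20 genes, and the rest had under 100 UMIs over both sets and were not compared. Genes high in the larger remaining set pass that filter more easily. Of 13 genes of perivenous P450 and drug oxidation 8 were lower and none higher, with a median of -0.96. Cyp3a11, the most abundant of them, stood at 5406 against 7826 CPM, 1.45-fold lower and not called, and Aox3, an aldehyde oxidase, at 426 against 344 CPM. Of 10 glutathione transferase genes 7 were lower, with a median of -0.86 and Gstm1 at 407 against 800 CPM. Of 9 bile acid synthesis genes 2 were lower, Cyp7a1 and Cyp27a1 (238 against 389 CPM), with a median of -0.25. Centred on the median gene 1 was lower. When levels were averaged over single barcodes the median was -0.14, against -0.15 for all genes. Cyp39a1, 2.15-fold higher, was not in this list. Of 15 fatty acid oxidation and ketogenesis genes 4 were lower and none higher, with a median of -0.41, and Cyp4a10 stood at 39.8 against 130.1 CPM. Cyp4a14 (6.51 against 23.9 CPM) and Acadl (18.8 against 32.3 CPM), singled out after their values were seen, were also lower.

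Of 24 nuclear genes of oxidative phosphorylation 2 were lower (Cox7c, at 236 against 412 CPM, and cytochrome c, Cycs, singled out after its values were seen, at 19.5 against 35.1 CPM), all 24 had a ratio under 1, and the median was -0.26, or -0.14 relative to the median gene, which 4 of them exceeded. Of 18 immediate early and heat shock genes 9 had enough UMIs to be compared. Among those 9, 5 were lower, with a median of -0.59, including Jun at 14.5 against 47.6 CPM and Hsp90aa1 at 78.1 against 120 CPM. The other lower ones, Egr1, Junb and Ier2, were singled out after their values were seen and lay between 18.8 and 28.9 CPM in the periportal barcodes. Of 77 genes with Rpl or Rps symbols, which name proteins of the cytosolic ribosome and their close relatives, 8 were lower and none higher, with a median of -0.38, and 75 lay below the median gene. Of 15 cholesterol synthesis genes and 15 genes of folding in the endoplasmic reticulum none was called, with medians of -0.05 and 0.02. The former became 0.03 with the zone genes and the 20 most abundant genes left out of the denominator. Of 11 genes of lipogenesis and glycolysis Pklr was higher and Me1 lower, with a median of 0.07 that became -0.05 when levels were averaged over single barcodes. Of 13 hepatocyte transcription factor genes 2 were lower, Nr1i3 and Cebpb (66.6 against 105 CPM), with a median of 0.00 that lay between -0.10 and 0.12 under the other scalings. Hnf4a, a master regulator of hepatocyte identity, stood at 97.7 against 94.5 CPM, with an interval of the ratio from 0.843 to 1.26, and its log2 ratio of 0.05 became -0.55 after thinning to 500 UMIs. Of 3 nuclear retained transcripts none was called.

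**Figure D3:**
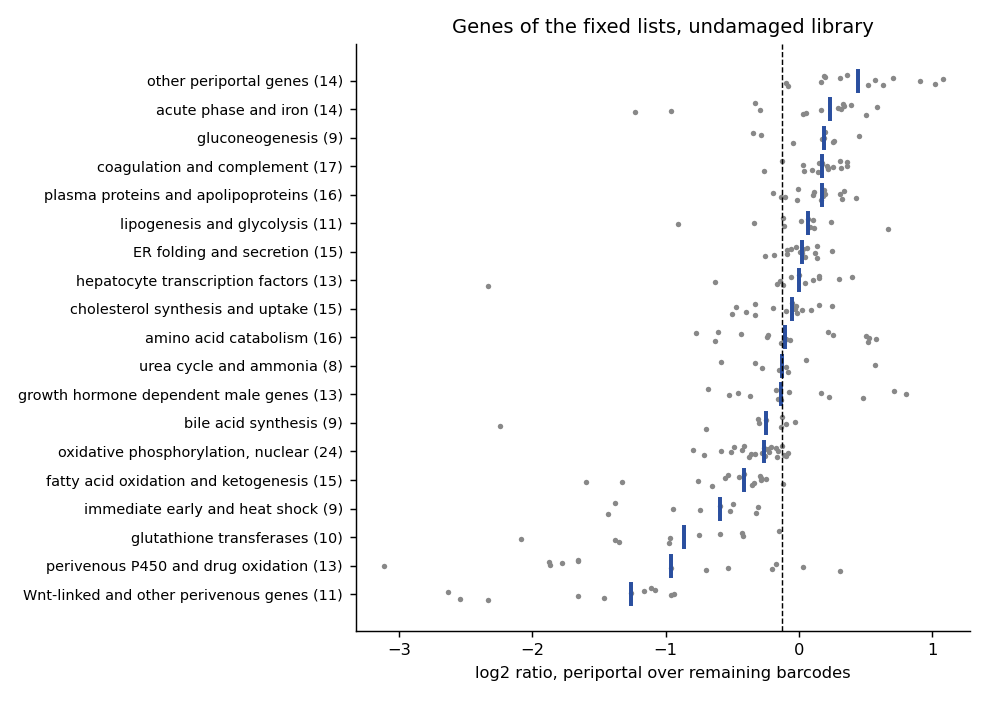
Log2 ratio of periportal over remaining barcodes (x axis) for each compared gene (points) of 19 gene lists (rows, with the number of genes), with the median of each list as a blue bar and the all-gene median of -0.12 as a dashed line. Medians run from -1.26 for Wnt-linked and other perivenous genes to 0.44 for other periportal genes, and secreted protein lists lie between the dashed line and 0.5.

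The spread among the periportal barcodes was measured as the observed variance over that of sampling alone, which stays near 1 for sparse genes whatever their real variation. Of 1270 genes with at least 100 UMIs in them, the median ratio was 1.03 and 28 exceeded 1.5. Of the 179 with a mean of at least 1 UMI per barcode, the median was 1.14 and 25 exceeded 1.5. Cyp2f2 had a ratio of 0.979, though it was part of the choice, and Cdh1 had 1.05. The most uneven gene was Mup20 at 10.2, with 966 of its 45811 UMIs in 1 barcode. Saa2, a serum amyloid A gene, followed at 9.67, with 47.5% of its 139 UMIs in 10 barcodes. Malat1, a nuclear RNA, had 6.56, Alb 5.33, Mup11 4.43 and the hepcidin gene Hamp 3.16. Those 6 genes encode secreted proteins, apart from Malat1. The zone genes Ass1, Pck1, Hal and Sds had ratios between 1.19 and 1.22.

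The PHx48h library did not enter the choice, and the same rule applied to its own 763 zoned barcodes gave 191 periportal barcodes, with a highest zone share of 0.114. Its liver had regrown for 48 h, so it repeats the contrast within another library and not the condition. There 40 of 5045 compared genes were higher (0.793%) and 108 lower (2.14%), with a median of -0.04. Of the 15 highest genes of the undamaged library 13 had a ratio above 1 at 48 h, and all 15 of the lowest had a ratio below 1. By fold 6 of the former and all 15 of the latter were called, some on under 100 UMIs. Hsd17b6 stood at 174 against 51.7 CPM at 48 h, 3.35-fold higher, and Cdh1 at 178 against 111 CPM, 1.61-fold higher. Ptgds, with 10 UMIs in all, and Plxnb1, at a ratio of 0.990, were the 2 that lay under 1. Sult5a1 had 29 UMIs over both sets at 48 h and a ratio of 1.41 (0.616 to 3.14). Cyp2a5 was 6.82-fold lower at 48 h, Cyp7a1 7.78-fold and Mup17 2.96-fold.

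Over the 3663 genes compared in both libraries, 28 had been called higher at 0 h, and of these 26 (92.9%) had a ratio above 1 at 48 h, as 41.8% of all did. Of 260 called lower at 0 h, 219 (84.2%) lay below 1 at 48 h, as 58.2% of all did. Across genes the log2 ratios of the 2 libraries had a Pearson r of 0.47 and a Spearman rho of 0.33, a description over points that share abundance and depth. The list of other periportal genes had a median of 0.49 at 48 h, close to its 0.44 at 0 h, and Wnt-linked and other perivenous genes had -0.97. Oxidative phosphorylation had a median of 0.00 at 48 h and fatty acid oxidation -0.12. The median changed sign for acute phase and iron genes (0.23 at 0 h, -0.23 at 48 h), amino acid catabolism (-0.10, 0.23), lipogenesis and glycolysis (0.07, -0.07) and growth hormone dependent male genes (-0.14, 0.12). The difference between libraries was not tested. Some of these 0 h signs depended on the scaling. Relative to the median gene, amino acid catabolism lay at 0.02 and growth hormone dependent male genes at -0.01 at 0 h. Averaged over single barcodes, lipogenesis and glycolysis lay at -0.05. The genes compared also differed, with 16 and 17, 14 and 16, 11 and 10, and 13 and 10 genes for amino acid, acute phase, lipogenesis and growth hormone lists.

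**Figure D4:**
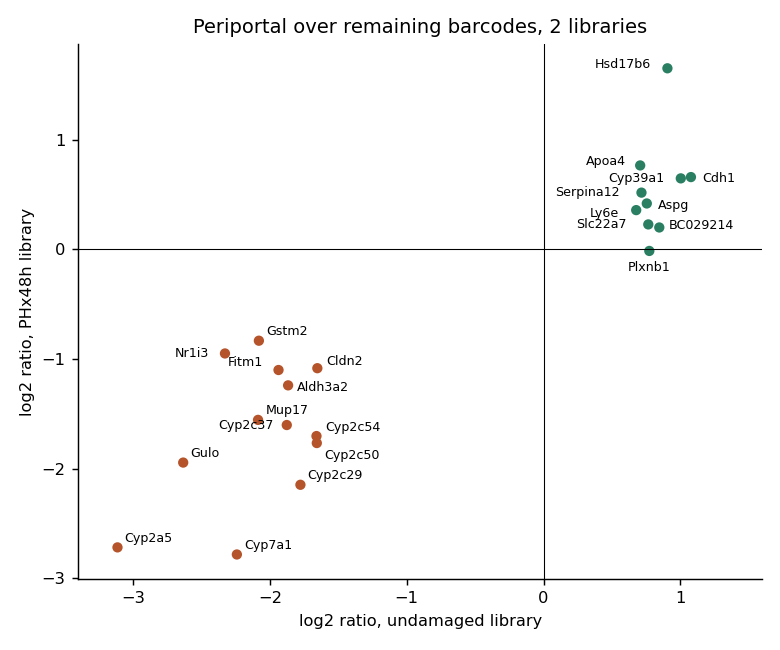
Log2 ratio of periportal over remaining barcodes in the undamaged library (x axis) and in the PHx48h library (y axis) for the genes at either end of the comparison that had at least 100 UMIs at 48 h, with genes higher at 0 h in green and lower in orange. All orange genes lie below 0 at 48 h, from Gstm2 at -0.83 to Cyp7a1 at -2.78, and of the green genes only Plxnb1 lies under 0, at -0.01.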

How the data were processed

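Hepatocyte suspensions were sequenced as droplet scRNA-Seq libraries, 1 per time point. The authors deposited UMI counts per gene and barcode, whole numbers without normalization for 27998 genes. The submitters' processing notes name Cell Ranger and mm10, and the Cell Ranger version and annotation are not given in the sources used here. The undamaged library held 96118593 UMIs in 59202 barcodes and the PHx48h library 18198719 in 1586. The periportal barcodes and the gene lists were chosen with earlier results of these data known. From the counts, UMIs were summed over barcodes and divided by the non-mitochondrial total, with exact Poisson intervals for levels, exact conditional binomial intervals for ratios and exact Clopper-Pearson intervals for shares, at 95%. These cover counting error only. Ratios in the text are without the added 5 CPM, and log2 ratios, medians and calls are with it. Genes named were the 15 highest and the 15 lowest log2 ratios among genes that reached 50 CPM in one of the sets and whose interval left out 1, then from each of 20 lists the 4 most abundant genes and those at either end, and the 15 zone genes. Genes named outside this rule are given as such or belong to counts of the most uneven genes and cell class markers. No doublet caller was run, and the deepest 5% of barcodes were left out as an alternative. Of the markers fixed for 9 cell classes, 4 had no entry in the files. Coordinates are from GENCODE M21 (GRCm38). Python 3.11.15, numpy 2.4.6, scipy 1.17.1, pandas 2.3.3 and matplotlib 3.10.9 were used, and the ratios were tested on simulated Poisson counts. Such counts have the spread that the intervals assume, so they could not show how the intervals fare for uneven genes such as Mup20. Alternatives changed the limits, the zone genes, the scaling, the added level, the gene filter, the depth and the fold. Some genes of the lists are counted but not reported here by name.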

Additional observations from a re-analysis of the deposited data

Results flagged for a closer look

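A few genes named in the report lay on opposite sides of 1 in the 2 libraries with both counting intervals leaving out 1, when periportal barcodes were set against remaining barcodes. With 1 library per time point the difference between libraries was not tested for any of them. Tdo2, the first enzyme of tryptophan breakdown, had a ratio of 0.927 at 0 h and 1.18 at 48 h. Cyp7b1, an oxysterol hydroxylase, had 0.910 and 1.31. Apoe had 0.931 and 1.12, and Apoh, another plasma apolipoprotein, had 0.874 and 1.08. C3, the central complement protein, went the other way, with 1.24 at 0 h and 0.958 at 48 h. With ratios centred on the median gene, Tdo2 and Apoe also lay above 1 at 0 h. All of these ratios lay within 1.5-fold of 1, and none of the genes was called in either library.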

How the results depend on the processing

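Of the 30 genes at either end, all kept their direction under the 20 settings that gave each of them a value, and 22 of 600 such values lay under 1.5-fold. Of 2380 values over all named genes, none of a gene called at 1.5-fold changed sign, whereas 81 values of 27 genes under that fold did, among them Jund, Srebf1 and Hnf4a at the limit of 50%. In all 592 values lay outside the counting interval of the reported ratio. The number of periportal barcodes was 290 at a mitochondrial limit of 50%, 526 with at least 10 zone UMIs, 330 at the 10th percentile, 409 and 406 among deeper and shallower barcodes and 419 after thinning to 500 UMIs. Calls higher and lower numbered 18 and 136 at the limit of 50%, 115 and 510 against zoned barcodes at or above the 75th percentile, 80 and 144 centred on the median gene, 19 and 116 with 20 CPM added, 139 and 630 for genes with at least 20 UMIs, 10 and 80 for at least 500, 206 and 1020 at the looser fold limit, and 6 and 58 at 2-fold. Calls lower alone moved to 429 at a limit of 20% and to 175 after thinning. Calls higher alone moved to 82 at the 10th percentile, 70 with the denominator without abundant genes and 25 with choice and levels on separate UMIs. Several of these settings change the number of barcodes or genes by construction, and otherwise the cause was not tested. Between 28 and 29 of the 30 genes kept their direction at 48 h under each of the 5 settings tried. Leaving out the barcode sequences that both libraries list, chosen after seeing the data, gave 829 barcodes with 36 calls higher and 287 lower. No paired analysis was possible because each time point had 1 library. Depth limits the zone share of single barcodes, with a median of 9 zone UMIs, and genes under 100 UMIs were not compared.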
